A study of Mus musculus with 9 samples.

Results

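Tumor cells that had taken up astrocyte mitochondria, scored by the mitochondrial fluorophore mKate2, were compared with the astrocytes from which these organelles came. The members were 6 of the 9 RNA-seq libraries, chosen by their labels: 3 of mKate2+ SB28 cells and 3 of astrocytes. SB28 is a single mouse glioblastoma (GBM) line of C57BL/6 background that carries green fluorescent protein, so the tumor replicates are separate cultures of 1 line. The astrocytes were primary neonatal cells from C57BL/6 mito::mKate2 mice, in which mKate2 marks the mitochondria, and were stained with CellTrace Violet. Both populations were grown together at equal numbers for 2 days in DMEM F12 with a small amount of serum, N2 supplement, EGF and FGF, received no other treatment, and were separated by sorting. The gates as the labels write them assign that stain to tumor cells instead, so each library was taken by its name. The remaining 3 libraries, of mKate2- SB28 cells from the same co-cultures, served as a reference only. Astrocytes that had never met tumor cells and SB28 cells grown alone were not analysed here. Total counts ranged from 34175016 to 39287841 per mKate2+ library and from 24454561 to 35135662 per astrocyte library. Of 49315 gene IDs, the 13342 with more than 1 CPM (counts scaled to a library total of 1e6) in at least 2 of the 6 libraries were tested. Levels printed in CPM were also adjusted by the TMM scaling factors of edgeR over all 9 libraries.

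A cell that receives a mitochondrion from another cell keeps its own nucleus. Nearly all mitochondrial proteins are encoded in the nucleus, translated in the cytosol and imported, whereas a few respiratory chain subunits are encoded in the circular mitochondrial genome. Astrocytes are known for glutamate uptake, glutamine synthesis, glycogen storage and lactate release. Glioma cells are known for growth factor signaling and for building nucleotides and lipids for division. The comparison therefore asked how far the recipient cells remained from the organelle source in metabolic, organelle and signaling genes.

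A gene was called higher or lower in mKate2+ cells when its adjusted p was below 0.05 and its log2 fold change was beyond 1 in size. By this rule 1634 genes were higher (12.2% of those tested) and 3041 were lower (22.8%), together 35.0%. The median log2 fold change over all genes was -0.02 and the median size of the change was 0.70. Without mKate2+ replicate 2, 1590 genes were higher (11.9%) and 2952 lower (22.1%), of which 1442 and 2857 were also called with it. The mKate2- cells, set against the same astrocyte libraries, gave 1531 higher (11.5%) and 2994 lower genes (22.4%). These comparisons share their controls, so only the direct test of mKate2+ against mKate2- cells addresses their difference. That test called 0 of 11854 genes at an adjusted p below 0.05 with edgeR (smallest adjusted p = 0.923), while 241 genes (2.03%) had an unadjusted p below 0.05. With the replicate number as a block it also called 0 genes (smallest adjusted p = 0.783, with 398 genes at an unadjusted p below 0.05), and 0 when mKate2+ replicate 2 was left out of that fit as well (smallest adjusted p = 0.0631, with 481 genes).

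2 features of the libraries bear on every value given here. In mKate2+ replicate 2, short genes were high and long genes were low. In the sixth of genes with the shortest exonic length, its median difference from the mKate2- mean was 0.34 on the log2 scale, against 0.02 and 0.05 in replicates 1 and 3, and in the sixth with the longest it was -0.21, against 0.01 and -0.02. Results on short genes, including most subunits of the respiratory chain and the ribosome, are therefore given with and without this library.

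The second feature lies in the astrocyte libraries. Among 7505 genes with a mean of at least 20 CPM in mKate2+ cells, 0 had an astrocyte mean below 10% of that level, and the lowest, of Dusp9, was 10.6%. Among 7847 genes with at least 20 CPM in astrocytes, 432 were below 10% of that level in mKate2+ cells and 175 were below 1%. Over the 100 genes of at least 20 CPM with the largest fold change upward, the astrocyte level had a median of 15.4% of the mKate2+ mean in astrocyte replicate 1, 20.8% in replicate 2 and 16.1% in replicate 3. The transcription factor gene Lhx1, for example, was at 34.6, 28.4 and 38.9 CPM in mKate2+ replicates 1, 2 and 3 and at 3.05, 7.01 and 3.79 CPM in the astrocyte replicates. Accordingly, 12 of the higher genes exceeded a log2 fold change of 3 and 0 exceeded 5, whereas 1477 of the lower genes passed -3 and 906 passed -5. Whether the astrocyte libraries held RNA from SB28 cells was not tested. These counts were chosen after the values were seen.

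**Figure D1:**
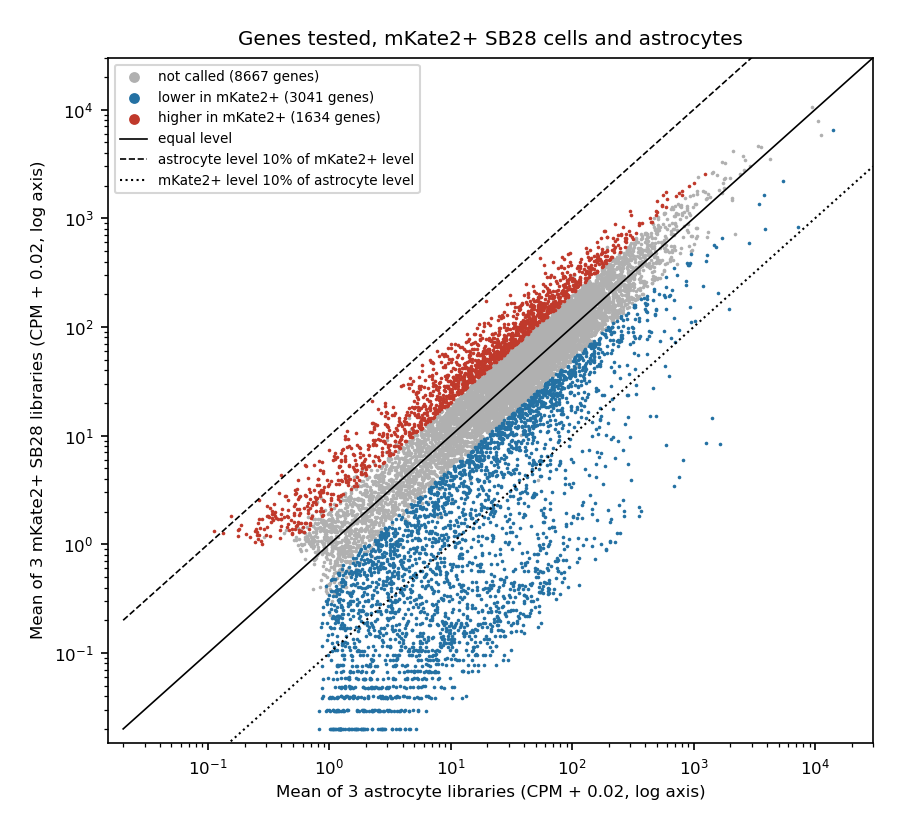
Mean level of each of the 13342 tested genes in the 3 astrocyte libraries (horizontal axis) and the 3 mKate2+ SB28 libraries (vertical axis), in CPM plus 0.02 on log axes. Blue points, lower in mKate2+ cells, spread far below the dotted line at which the mKate2+ level is 10% of the astrocyte level, whereas the red points, higher in mKate2+ cells, stop near the dashed line at which the astrocyte level is 10% of the mKate2+ level.

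The astrocyte label was checked against marker genes. Of 18 astrocyte markers, 15 passed the filter and 13 were lower in mKate2+ cells, with a median log2 fold change of -6.06, where 22.8% of all genes tested were lower. Of the 15, 5 entered the test only through their astrocyte level, which fixed their direction, and of the other 10, which also passed the filter among the 6 SB28 libraries, 8 were lower, against 13.5% of all such genes. The summed level of the 18 was 408, 490 and 432 CPM in mKate2+ replicates 1, 2 and 3, most of it from the gap junction gene Gja1, and 1392, 1278 and 1973 CPM in the astrocyte replicates, where Apoe, the lipid carrier apolipoprotein E, was the most abundant. Gjb6 was at 0 in both groups and Ntsr2 was at 0 in mKate2+ cells. The glutamate transporter gene Slc1a3 was at 0.837, 0.609 and 1.13 CPM in mKate2+ cells and 174, 171 and 227 CPM in astrocytes. The intermediate filament gene Gfap was low in the astrocytes themselves, at 8.89, 3.31 and 18.8 CPM, and the water channel gene Aqp4 was at 5.68, 6.59 and 57.7 CPM. Markers of oligodendrocyte precursors were also carried by the astrocyte libraries: Olig2, a glial lineage factor, was at 270, 154 and 150 CPM, although Sox10 was at or near 0 and Gpr17 at 0. The precursor markers summed to 1035, 642 and 736 CPM in astrocytes, led by Olig1, and to 147 to 181 CPM in mKate2+ cells, led by Vcan. Mature oligodendrocyte markers summed to 138, 95.8 and 103 CPM, nearly all from Cnp, against 22.6 to 30.9 CPM. The part of these other cell types in the results below was not tested.

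Astrocyte replicate 3 stood apart in some of these markers. The endothelial markers summed to 193 CPM in it and to 7.66 and 14.1 CPM in replicates 1 and 2, nearly all from Flt1, a receptor for vascular endothelial growth factor (53.0 to 57.4 CPM in mKate2+ cells), while Cldn5 and Emcn were at 0 in both groups. The ependymal markers summed to 80.9 CPM in it against 13.8 and 10.1 CPM (1.48 to 1.80 CPM in mKate2+ cells), with Foxj1, a factor for motile cilia, as the most abundant. The Y-linked gene Ddx3y was at 109.6 CPM in it and at no more than 0.564 CPM in each of the other libraries. Without astrocyte replicate 3, 1638 genes were higher and 2901 lower. Fibroblast and mural markers summed to 1484, 1528 and 1148 CPM in astrocytes and 801, 604 and 749 CPM in mKate2+ cells, with the collagen gene Col1a2 first in both. Neuron markers summed to 73.0, 114 and 129 CPM in astrocytes and 39.7 to 45.7 CPM in mKate2+ cells, led by Map2 and Tubb3, with Rbfox3 at 0 in both. The microglial markers summed to 37.1 to 57.5 CPM in astrocytes and 53.4 to 70.5 CPM in mKate2+ cells. Most of this came from Tmem119 (means of 30.9 and 56.0 CPM), and Cx3cr1, Itgam and C1qb were at 0 in mKate2+ cells. The sums hide the other tested markers: of 3 tested, P2ry12 and Cd68 were lower in mKate2+ cells and Tmem119 was not called. The median log2 fold change of the 3 was -2.19. Of the 3, 2 passed the filter among SB28 libraries, and 1 of these was lower. In bulk libraries a change in the number of cells of a type and a change in RNA per cell cannot be told apart.

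Levels below are in CPM, in the order of replicates 1, 2 and 3, and fold changes are on the log2 scale, mKate2+ over astrocytes, ± the standard error of the fit over 6 libraries. Of the 13342 genes tested 1575 did not pass the filter among the 6 SB28 libraries: they entered through their astrocyte level, which largely fixed their direction, and 1450 of them were lower and 0 higher. They include 25 of the genes given below with a fold change, namely Prex2, Slc1a2, Slc38a3, Gldc, Me3, Pygm, Cmpk2, Gpx7, Cox4i2, Cox6b2, Cox7a1, Ppargc1a, Esrrg, Chchd10, Slc25a18, Kif17, Tgfa, Fgfr2, Ntrk2, Ddit4l, Shh, Ifit3, Cxcl14, Icam1 and S1pr3. Slc16a7, Pygl, Psmb8 and Psmb9, given below without a fold change, entered in the same way. The genes with the smallest p values that also moved the same way in all 9 pairings of an mKate2+ with an astrocyte library were led, among the lower genes, by Sfrp1, a secreted Wnt antagonist. Sfrp1 was at 1.76, 1.61 and 1.39 CPM in mKate2+ cells and 204, 205 and 205 CPM in astrocytes, with a log2 fold change of -7.01 ± 0.15, adjusted p = 2.09e-06. Apoe followed, at 2.68, 2.13 and 2.82 CPM in mKate2+ cells and 266, 252 and 261 CPM in astrocytes, with a change of -6.68 ± 0.17, adjusted p = 2.89e-06. The groups were far apart in both genes and each astrocyte library was close to its neighbours. The other 8 were the neural RNA-binding protein gene Msi1 (-5.76), the neural transcription factor genes Npas3 (-6.19) and Arnt2 (-4.28), the orphan receptor gene Gprc5b (-4.43), the Rac exchange factor gene Prex2 (-6.48), Tmem44 (-5.59), 2900011O08Rik (-5.85) and the calcium channel gene Cacna1h (-6.00), all given as log2 fold changes. The adjusted p of each of these 8 was 4.92e-06.

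Among the higher genes the list was led by Igf2bp3, an oncofetal RNA-binding protein, which was at 70.1, 64.5 and 73.9 CPM in mKate2+ cells and 10.3, 11.4 and 10.9 CPM in astrocytes and had a log2 fold change of 2.67 ± 0.13, adjusted p = 9.54e-06. The other 9 included Slc16a1, the monocarboxylate transporter MCT1 (2.33), the replicative helicase subunit gene Mcm5 (2.26), the synaptotagmin gene Syt13 (2.31), the mitochondrial aspartate/glutamate carrier gene Slc25a13 (2.41), the interleukin 18 receptor chain gene Il18rap (2.66), the histone chaperone gene Asf1b (2.02), the PCNA-associated factor gene Pclaf (2.02) and the potassium channel gene Kcnk5 (2.72). The rule by which these 10 genes were selected required that their mKate2+ and astrocyte libraries not overlap. All 20 kept their call without mKate2+ replicate 2.

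Metabolic genes were described in 11 groups that hold 253 different tested genes, of which 66 were higher (26.1%) and 38 lower (15.02%). The largest shares of higher genes were in nucleotide synthesis, one-carbon metabolism and sterol synthesis, and the lower genes included transporters and isozymes of glucose and lactate metabolism.

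Of 13 glucose, pyruvate and lactate transporter genes, 1 was higher and 7 were lower, with a median log2 fold change of -1.17. The median was -0.64 over the members with at least 10 counts in every library, and of the 10 members that passed the filter among SB28 libraries 4 were lower. Slc16a1, which encodes a monocarboxylate transporter of broad distribution, was at 470.0, 439 and 494 CPM in mKate2+ cells and 90.3, 97.5 and 90.5 CPM in astrocytes, with a change of 2.33 ± 0.12, adjusted p = 9.69e-06. The alternative transporter gene Slc16a3, which encodes the lactate exporter MCT4, was at 2.96, 4.71 and 3.71 CPM in mKate2+ cells and 47.9, 50.4 and 45.6 CPM in astrocytes, a change of -3.67 ± 0.20, adjusted p = 1.27e-05. The glucose transporter genes also parted: Slc2a3 was at 15.5, 15.8 and 13.6 CPM in mKate2+ cells and 166, 204 and 151 CPM in astrocytes (-3.54 ± 0.16, adjusted p = 6.88e-06). Slc2a1 was at 345, 476 and 301 CPM in mKate2+ cells and 191, 225 and 177 CPM in astrocytes, with a log2 fold change of 0.92 ± 0.19, adjusted p = 0.00460, under the size limit. It passed the limit without mKate2+ replicate 3 (1.05) or astrocyte replicate 2 (1.03). Slc16a7, which encodes the high-affinity transporter MCT2, had 5 counts in all over the mKate2+ libraries and was at 3.95, 4.11 and 3.08 CPM in astrocytes.

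Of 23 glycolysis genes 1 was higher, 5 were lower (21.7%, against 22.8% of all genes, and 4 of the 22 that passed the filter among SB28 libraries, 18.2% against 13.5%) and 17 were not called. The higher genes numbered 2 without mKate2+ replicate 1 or astrocyte replicate 2. Ldhb, the lactate dehydrogenase form that favours pyruvate, was at 9.12, 11.2 and 10.03 CPM in mKate2+ cells and 217, 164 and 183 CPM in astrocytes, with a log2 fold change of -4.22 ± 0.16, adjusted p = 5.25e-06. The abundant form Ldha was at 1673, 2654 and 1974 CPM in mKate2+ cells and 1907, 1966 and 1316 CPM in astrocytes, groups that overlap (0.28 ± 0.23, adjusted p = 0.319). Eno2, the neuronal enolase gene, changed by -3.24 ± 0.25, adjusted p = 4.42e-05. Pfkfb3, which encodes an enzyme that makes the activator of phosphofructokinase, changed by -3.43 ± 0.41, adjusted p = 3.29e-04. The liver-type relative Pfkfb1 was the single higher gene, at 7.14, 5.57 and 7.09 CPM in mKate2+ cells and 1.73, 2.22 and 1.70 CPM in astrocytes (1.80 ± 0.26, adjusted p = 8.50e-04). The 2 most abundant members not called, Gapdh and Pkm, had log2 fold changes of 0.56 ± 0.22, adjusted p = 0.0577 and 0.35 ± 0.19, adjusted p = 0.154. The median of the group was 0.09 and turned to -0.13 without mKate2+ replicate 2.

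Side branches of glucose use gave 3 higher and 2 lower genes of 20. The oxidative pentose phosphate enzyme genes Pgd and H6pd and the ribose phosphate isomerase gene Rpia were higher, by log2 fold changes of 1.10, 1.08 and 1.21, and the call of Pgd was lost without mKate2+ replicate 2 (0.99) and without astrocyte replicate 3 (0.91). Pygm, the muscle form of glycogen phosphorylase, was lower (-2.47 ± 0.48, adjusted p = 0.00316), and the liver form Pygl had 2 counts in all over the mKate2+ libraries against 3.22 to 6.65 CPM in astrocytes.

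Of 28 genes of pyruvate entry and the tricarboxylic acid cycle, 22 were not called, against 8667 of all 13342, and the median was 0.30. The lower genes numbered 4 (14.3%, against 22.8% of all genes). Of the 27 that passed the filter among SB28 libraries 3 were lower (11.1%, against 13.5%). The higher genes numbered 2 (7.14%, against 12.2%), and 4 without astrocyte replicate 2. Citrate synthase (Cs) was at 433, 467 and 431 CPM in mKate2+ cells and 367, 358 and 338 CPM in astrocytes, a log2 fold change of 0.32 ± 0.11, adjusted p = 0.0386. The called genes included Me2, the mitochondrial malic enzyme gene, at 137, 180.3 and 151 CPM in mKate2+ cells and 46.6, 54.4 and 41.2 CPM in astrocytes (1.71 ± 0.16, adjusted p = 1.05e-04), Dlst, a subunit of the oxoglutarate dehydrogenase complex (1.14 ± 0.12, adjusted p = 1.78e-04), and on the lower side Pdk2, a pyruvate dehydrogenase kinase gene, at 4.77, 7.17 and 5.55 CPM in mKate2+ cells and 60.2, 44.8 and 54.7 CPM in astrocytes (-3.19 ± 0.21, adjusted p = 2.29e-05), the pyruvate carboxylase gene Pcx (-1.43 ± 0.21, adjusted p = 9.19e-04) and the NADP-dependent malic enzyme gene Me3 (-3.57 ± 0.67, adjusted p = 0.00281, and -2.64 without astrocyte replicate 3).

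Fatty acid synthesis genes were higher in 21.4% (12.2% of all genes) and lower in 7.14% (13.5% of all genes that passed among SB28 libraries). Of 14 synthesis genes 3 were higher: Acaca, acetyl-CoA carboxylase, at 246, 246 and 243 CPM in mKate2+ cells and 73.1, 92.9 and 86.9 CPM in astrocytes (1.53 ± 0.13, adjusted p = 7.06e-05), Fasn, fatty acid synthase (1.25 ± 0.12, adjusted p = 1.30e-04), and the elongase gene Elovl6 (1.77 ± 0.16, adjusted p = 1.01e-04). The 1 lower synthesis gene was Acacb (-1.01), and the lower ones numbered 0 to 2 when 1 library was left out. All 24 genes of mitochondrial oxidation passed the filter among SB28 libraries, where 13.5% of all genes were lower. Of these 24, 3 were higher (12.5%, against 12.2% of all genes) and 3 lower (12.5%), or 5 lower without mKate2+ replicate 2 or astrocyte replicate 3. Those higher were all long-chain acyl-CoA synthetase genes, Acsl5 (1.61), Acsl4 (1.52) and Acsl1 (1.17, and 1.00, at the limit and not called, without astrocyte replicate 1). The lower ones included carnitine palmitoyltransferase genes: Cpt1a at 85.9, 74.4 and 71.4 CPM in mKate2+ cells and 166, 171 and 164 CPM in astrocytes (-1.12 ± 0.12, adjusted p = 1.87e-04) and the brain form Cpt1c at 14.1, 11.4 and 10.3 CPM in mKate2+ cells and 181, 146 and 174 CPM in astrocytes (-3.81 ± 0.17, adjusted p = 6.88e-06).

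Sterol synthesis had 11 of 22 genes higher (50.0%, against 12.2% of all genes), 0 lower and a median of 0.95 (0.81 without mKate2+ replicate 2, with 9 higher). Dhcr7, the last step to cholesterol, was at 152, 166 and 135 CPM in mKate2+ cells and 57.4, 52.6 and 45.2 CPM in astrocytes, a log2 fold change of 1.54 ± 0.14, adjusted p = 9.09e-05. The squalene epoxidase gene Sqle changed by 1.29 ± 0.15, adjusted p = 2.70e-04. Insig1, which retains the sterol sensor in the endoplasmic reticulum, was not called (-0.38 ± 0.17, adjusted p = 0.0941). Hmgcs1, which encodes the cytosolic HMG-CoA synthase, was at 115, 94.6 and 91.9 CPM in mKate2+ cells and 223, 195 and 177 CPM in astrocytes, a negative value just short of the size limit (-0.99 ± 0.14, adjusted p = 8.07e-04), which it passed without mKate2+ replicate 1 (-1.10) or astrocyte replicate 3 (-1.06). It was named after its values were seen.

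Amino acid genes were called in both directions. Of 23 glutamate and glutamine genes 8 were higher (34.8%, against 12.2% of all genes) and 5 lower (21.7%, against 22.8%). Their median size of change was 1.73, against 0.70 for all genes. Of the 21 that passed the filter among SB28 libraries 3 were lower (14.3%, against 13.5%). Slc1a5, the glutamine transporter ASCT2, was at 92.7, 91.3 and 72.2 CPM in mKate2+ cells and 21.1, 24.1 and 22.1 CPM in astrocytes (1.92 ± 0.15, adjusted p = 4.38e-05). Asns, asparagine synthetase, was at 482, 478 and 359 CPM in mKate2+ cells and 91.1, 96.6 and 60.0 CPM in astrocytes (2.41 ± 0.22, adjusted p = 9.76e-05). Aldh18a1, which starts proline synthesis from glutamate, changed by 1.85 ± 0.14, adjusted p = 4.57e-05. The lower members were the astrocyte glutamate transporter genes Slc1a3 (-7.80 ± 0.27, adjusted p = 5.04e-06) and Slc1a2 (-7.90), the glutamine exporter gene Slc38a3 (-7.29), the GABA transaminase gene Abat (-4.87 ± 0.47, adjusted p = 1.32e-04) and Glul, glutamine synthetase, at 37.2, 50.6 and 38.97 CPM in mKate2+ cells and 106, 110.0 and 148 CPM in astrocytes (-1.53 ± 0.19, adjusted p = 3.44e-04). Without astrocyte replicate 3 the log2 fold changes of Slc1a2, Slc38a3 and Abat were -6.29, -5.09 and -4.24, and Slc1a2 was at -7.31 without mKate2+ replicate 2 and Slc38a3 at -7.92 without mKate2+ replicate 3.

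Of 25 serine and folate one-carbon genes 14 were higher and 4 lower, a median of 1.15. Phgdh, the first enzyme of serine synthesis, was at 687, 651 and 675 CPM in mKate2+ cells and 204, 200.5 and 173 CPM in astrocytes (1.80 ± 0.12, adjusted p = 3.08e-05). The mitochondrial folate enzyme gene Mthfd1l was at 185, 207 and 179 CPM in mKate2+ cells and 52.5, 58.8 and 52.7 CPM in astrocytes (1.79 ± 0.12, adjusted p = 2.54e-05). The cytosolic serine hydroxymethyltransferase gene Shmt1 changed by 2.07 ± 0.15, adjusted p = 3.30e-05. Of the lower genes, Gldc (-6.07 ± 0.57, adjusted p = 1.14e-04, and -5.47 without astrocyte replicate 3) and Amt (-4.51 ± 0.20, adjusted p = 6.88e-06) encode parts of the glycine cleavage system, and Aldh1l1 (-4.23 ± 0.28, adjusted p = 2.45e-05), a folate dehydrogenase, is an astrocyte marker.

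Nucleotide synthesis had 16 higher genes of 29 (55.2%), 1 lower gene and a median of 1.21 (1.25 without mKate2+ replicate 2). Cad, which carries the first steps of pyrimidine synthesis, was at 387, 326 and 377 CPM in mKate2+ cells and 103, 113 and 116 CPM in astrocytes (1.71 ± 0.13, adjusted p = 4.27e-05). Umps, which completes uridine monophosphate, changed by 1.57 ± 0.13, adjusted p = 6.07e-05. Prps1, which makes the ribose donor, changed by 1.60 ± 0.13, adjusted p = 5.43e-05. The lower gene was Cmpk2, a mitochondrial nucleotide kinase known to be interferon-induced, at 0.167, 0.138 and 0.0297 CPM in mKate2+ cells and 3.75, 3.70 and 11.95 CPM in astrocytes (-5.80 ± 0.75, adjusted p = 4.76e-04, and -5.00 without astrocyte replicate 3).

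Of 32 glutathione and antioxidant genes 4 were higher (12.5%) and 6 lower (18.8%), against 12.2% and 22.8% of all genes. Of the 30 that passed the filter among SB28 libraries 4 were lower (13.3%, against 13.5%). Nqo1, a quinone reductase, was at 329, 333 and 185 CPM in mKate2+ cells and 98.6, 126 and 75.0 CPM in astrocytes (1.49 ± 0.28, adjusted p = 0.00253), with the lowest mKate2+ library still above the highest astrocyte library. The glutathione transferase gene Gsta4 changed by -4.77 ± 0.19, adjusted p = 5.62e-06. The endoplasmic reticulum peroxidase gene Gpx7 was at 0.223, 0.0554 and 0.0297 CPM in mKate2+ cells and 15.6, 4.76 and 8.57 CPM in astrocytes (-6.49 ± 0.75, adjusted p = 2.77e-04, and -7.69 without mKate2+ replicate 1).

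**Figure D2:**
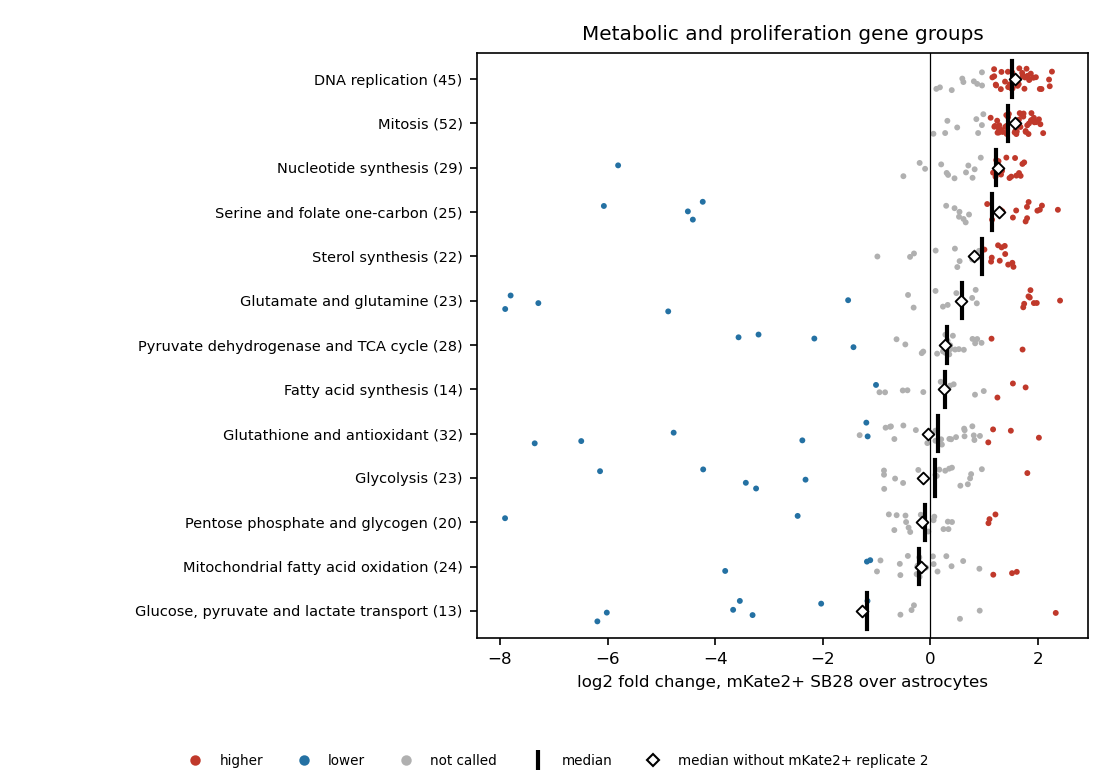
Log2 fold change of every tested gene (points) in the 11 metabolic and 2 proliferation groups, mKate2+ SB28 over astrocytes, with the number tested in brackets. Black bars are group medians with all 6 libraries, and open diamonds are medians without mKate2+ replicate 2. The proliferation, nucleotide and one-carbon groups have medians above 1, and the transporter group has one of -1.17, or -0.64 over its genes with at least 10 counts in every library.

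Proliferation genes had the largest shares of higher genes of all groups described. Of 45 DNA replication genes 36 were higher and 0 lower, with a median of 1.52 (1.58 without mKate2+ replicate 2), and of 52 mitosis genes 44 were higher and 0 lower, with a median of 1.45 (1.57). The helicase subunit gene Mcm5 was at 201, 192 and 225 CPM in mKate2+ cells and 44.1, 43.9 and 40.7 CPM in astrocytes, with a log2 fold change of 2.26 ± 0.12, adjusted p = 1.06e-05. Mcm6, of the same ring, changed by 2.03 ± 0.13, adjusted p = 2.17e-05. Aurka, a mitotic kinase, was at 173, 165 and 157 CPM in mKate2+ cells and 45.0, 35.2 and 35.6 CPM in astrocytes (2.10 ± 0.14, adjusted p = 2.31e-05). Ccna2, cyclin A2, changed by 2.02 ± 0.14, adjusted p = 3.08e-05. Mki67, the common proliferation marker, was not called: it was at 108, 50.1 and 116 CPM in mKate2+ cells and 60.1, 42.2 and 123 CPM in astrocytes, and both the mKate2+ and the astrocyte libraries were spread so widely that they overlapped. The astrocyte level of the higher replication genes had a median of 31.8% of the mKate2+ level, and that of the higher mitosis genes 33.1%, against 37.0% over all 1634 higher genes.

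Since the sterol and proliferation groups had large shares of higher genes, the 250 bases before the start of their genes were read from RefSeq promoters of GRCm38.p6, in which 16 of the 22 sterol, 37 of the 45 replication and 43 of the 52 mitosis genes matched, as did 10093 of all genes tested. 5 runs of letters were searched on both strands: CCAAT, the box bound by NF-Y, TTTNNCGC for E2F factors, TTTGAA for the cell cycle homology region (CHR) and TCACNCCAC for the sterol element, besides the palindrome of the mitochondrial regulator NRF1. CCAAT was in 15 of 16 sterol promoters (93.8%), 29 of 43 mitosis promoters (67.4%) and 22 of 37 replication promoters (59.5%), against 36.8% of all tested genes. The share did not follow the share of higher genes in other groups: CCAAT was in 8 of 14 ATP synthase promoters (57.1%), 5 of 9 of Complexes II and III (55.6%) and 6 of 12 of Complex IV (50.0%), but in 6 of 26 of nucleotide synthesis (23.1%). TTTNNCGC was in 10 of 37 replication promoters (27.0%) and 6 of 43 mitosis promoters, against 7.38% of all, but also in 3 of 12 of Complex IV (25.0%). TTTGAA was in 12 of 43 mitosis promoters (27.9%) and 4 of 37 replication promoters (10.8%), against 1009 of 10093, and in 11 of 69 of the mitochondrial ribosome (15.9%). TCACNCCAC was in 1 of 16 sterol promoters, against 0.991% of all, and the NRF1 palindrome was in 0 of 16, against 1.66%. Such matches describe sequence and are not shown to be sites of binding. The promoters printed here are of higher genes, chosen to show CCAAT, E2F and CHR matches, 5′ to 3′ on the strand of the gene. Capitals mark the motif named for each promoter, on either strand, and matches to other motifs stay in lower case.

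For Lss, lanosterol synthase, with a log2 fold change of 1.26, the window is chr10:76531355-76531604 on the + strand, with the reverse form of CCAAT in capitals.
Lss: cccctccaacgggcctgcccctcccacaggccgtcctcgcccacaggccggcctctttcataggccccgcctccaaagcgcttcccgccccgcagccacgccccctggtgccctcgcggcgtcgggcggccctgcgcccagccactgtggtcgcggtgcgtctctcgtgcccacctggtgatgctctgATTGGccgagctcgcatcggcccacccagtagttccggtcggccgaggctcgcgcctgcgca
For Idi1, isopentenyl diphosphate isomerase (1.52), it is chr13:8885356-8885605 on the + strand, with 2 reverse CCAAT boxes.
Idi1: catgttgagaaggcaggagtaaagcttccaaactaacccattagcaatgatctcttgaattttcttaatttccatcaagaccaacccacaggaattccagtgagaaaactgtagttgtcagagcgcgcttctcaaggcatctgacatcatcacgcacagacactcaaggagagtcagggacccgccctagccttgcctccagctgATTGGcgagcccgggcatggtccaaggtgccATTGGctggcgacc
For Mcm5 it is chr8:75109259-75109508 on the + strand, with 2 overlapping E2F matches, 1 on each strand.
Mcm5: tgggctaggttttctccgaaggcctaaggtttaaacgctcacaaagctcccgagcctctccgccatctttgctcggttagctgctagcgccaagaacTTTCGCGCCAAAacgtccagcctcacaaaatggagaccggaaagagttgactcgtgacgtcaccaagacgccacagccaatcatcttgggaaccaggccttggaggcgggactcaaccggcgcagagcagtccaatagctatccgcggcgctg
For Mcm6 it is chr1:128359706-128359955 on the - strand, with 3 E2F matches, of which 2 overlap.
Mcm6: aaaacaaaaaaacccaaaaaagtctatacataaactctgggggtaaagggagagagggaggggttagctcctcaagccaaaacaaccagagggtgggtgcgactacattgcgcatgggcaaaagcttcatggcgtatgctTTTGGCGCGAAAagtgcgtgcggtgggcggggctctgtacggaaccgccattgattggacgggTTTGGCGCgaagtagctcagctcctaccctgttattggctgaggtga
For Cdk1, the mitotic kinase (1.60), it is chr10:69352913-69353162 on the - strand, with 2 CHR matches.
Cdk1: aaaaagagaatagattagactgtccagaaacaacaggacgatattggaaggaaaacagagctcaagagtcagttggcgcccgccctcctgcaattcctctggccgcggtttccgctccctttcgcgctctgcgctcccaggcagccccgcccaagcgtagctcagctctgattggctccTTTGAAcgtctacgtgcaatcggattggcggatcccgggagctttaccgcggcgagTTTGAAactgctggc

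Organelle genes were described in 21 groups with 742 different tested genes, of which 84 were higher (11.3%) and 71 lower (9.57%). The higher genes numbered 54 without mKate2+ replicate 2 or without astrocyte replicate 3, and 136 without mKate2+ replicate 1, while the lower ones ranged from 64 to 73 when 1 library was left out. Where no share is printed beside a count, it is read against the 12.2% higher and 22.8% lower of all genes. For members that passed the filter among SB28 libraries, the share of lower genes to read against is 13.5%.

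Nuclear-encoded respiratory chain subunits showed this. Of 83 subunits 10 were higher and 3 lower, with a median of 0.64. Without replicate 2 the median was 0.13 and 2 were higher. The higher subunits numbered 22 and 17 without mKate2+ replicates 1 and 3 and 3 without either astrocyte replicate 2 or 3. In mKate2- cells the median was 0.07 and 1 was higher. Complex I had a median of 0.53 (0.07 without replicate 2), Complexes II and III 0.43 (0.18), Complex IV 0.48 (-0.07) and ATP synthase 0.79 (0.26). Cox8a, a small Complex IV subunit, was at 120.0, 402 and 129 CPM in mKate2+ cells and 101.7, 82.9 and 66.3 CPM in astrocytes: replicate 2 stood far above the other libraries, and the log2 fold change of 1.37 became 0.57 without it. The call of Cox8a was also lost without any 1 astrocyte library, at fold changes of 1.23 to 1.54. Cycs, cytochrome c, was higher with and without it, at 161, 257 and 175 CPM in mKate2+ cells and 74.9, 72.4 and 57.5 CPM in astrocytes (1.53 ± 0.20, adjusted p = 5.13e-04, and 1.30 without). Atp5g3, a subunit of the ATP synthase rotor ring, also kept its call, at 317, 571 and 352 CPM in mKate2+ cells and 191, 165 and 135 CPM in astrocytes (1.33 ± 0.24, adjusted p = 0.00244, and 1.03 without). The larger subunit gene Atp5a1 was at 1517, 1728 and 1613 CPM in mKate2+ cells and 1062, 913 and 818 CPM in astrocytes, a change of 0.79 ± 0.14, adjusted p = 0.00235.

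The 3 lower subunits were all alternative forms of Complex IV subunits. Cox6b2, known from testis, was at 0.195, 0.914 and 0.267 CPM in mKate2+ cells and 22.3, 29.1 and 25.3 CPM in astrocytes (-5.79 ± 0.53, adjusted p = 9.83e-05, and -6.77 without mKate2+ replicate 2). Cox4i2, the form tied to low oxygen, was at 0.167, 0.0831 and 0.0297 CPM in mKate2+ cells and 5.60, 1.86 and 1.98 CPM in astrocytes (-5.00 ± 0.73, adjusted p = 8.13e-04, with -5.69 without mKate2+ replicate 1 and -4.30 without astrocyte replicate 1). Cox7a1, the muscle form, was at 0.139, 0.249 and 0.208 CPM in mKate2+ cells and 1.36, 1.54 and 0.549 CPM in astrocytes (-2.51 ± 0.55, adjusted p = 0.00556). In all 3 every mKate2+ library was below every astrocyte library, and all 3 entered the test only through their astrocyte level.

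Messages of the mitochondrial genome went the other way from nuclear subunits. They made up 1.37%, 0.552% and 1.51% of all counts in mKate2+ replicates 1, 2 and 3 and 1.76%, 2.91% and 3.13% in the astrocyte replicates, or 1.14% ± 0.518 and 2.60% ± 0.733 (SD, n = 3 each). The groups did not overlap, and an exact two-sided permutation test gave p = 0.1, the smallest it can give for 3 against 3. The mKate2- cells were at 1.02% ± 0.197. Of the 12 mitochondrial mRNAs tested 5 were lower and all 12 had negative log2 fold changes, with a median of -1.17, or -0.86 with 3 lower when replicate 2 was left out. Without astrocyte replicate 2 or 3 the lower ones were 1 and 2. In mKate2- cells the median was -1.39 and 11 were lower. Of the 12, 9 passed the filter among SB28 libraries, and 5 of these were lower in mKate2+ cells (55.6%, against 13.5% of all such genes). The rest entered through their astrocyte level, which largely fixed their direction. mt-Cytb, cytochrome b of Complex III, was at 1830.2, 932 and 2187 CPM in mKate2+ cells and 2806, 4538 and 4088 CPM in astrocytes (-1.21 ± 0.33, adjusted p = 0.0153), and its call was lost without mKate2+ replicate 2 (-0.92) or astrocyte replicate 2 (-1.06). mt-Nd6, a Complex I subunit on the light strand, was at 135, 90.2 and 169.8 CPM in mKate2+ cells and 388, 494 and 561 CPM in astrocytes (-1.88 ± 0.26, adjusted p = 6.03e-04). mt-Nd1, another Complex I subunit, was at 1644, 895 and 1906 CPM in mKate2+ cells and 1771, 2185 and 2249.8 CPM in astrocytes and was not called (-0.49 ± 0.28, adjusted p = 0.165). 6 of the 13 mRNAs (mt-Co2, mt-Co3, mt-Atp6, mt-Atp8, mt-Nd3 and mt-Nd4l) were at no more than 3.54 CPM in any of the 6 libraries, while mt-Co1 reached 3210 to 16862 CPM. A nuclear stretch on chromosome 1 (GRCm38, 24611535 to 24616197) carries copies of this part of the mitochondrial genome, and unique counting leaves the levels of these 6 uncertain. The 5 lower calls include that of mt-Nd3 (-1.21), and the 12 tested mRNAs and their median include others of these 6.

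Expression machinery for mitochondrial proteins had positive medians, but in most of its groups the share of higher genes was near that of all genes (12.2%). Of 78 mitochondrial ribosomal protein genes 10 were higher (12.8%) and 0 lower, a median of 0.67 that became 0.37 without replicate 2. Without astrocyte replicate 3, 6 were higher. Mrps10 changed by 1.60 ± 0.15, adjusted p = 1.08e-04. Of 46 import and chaperone genes 12 were higher (26.1%) and 0 lower, a median of 0.66 (0.49 without replicate 2, with 7 higher). Tomm70a, a receptor of the outer membrane translocase, changed by 1.32 ± 0.15, adjusted p = 2.27e-04. Timm8a1, a small chaperone of the intermembrane space, changed by 2.01 ± 0.23, adjusted p = 2.41e-04. Htra2, a protease of that space, changed by 1.11 ± 0.12, adjusted p = 1.78e-04. Respiratory chain assembly factors had 5 higher (10.2%) and 1 lower of 49 and a median of 0.46. The higher ones numbered 3 without mKate2+ replicate 2, when 2 were lower, 2 without astrocyte replicate 3 and 8 without mKate2+ replicate 1. Of 24 genes for mitochondrial DNA maintenance and transcription 3 were higher (12.5%), among them the DNA ligase gene Lig3 (1.33 ± 0.17, adjusted p = 4.24e-04) and the topoisomerase gene Top1mt (1.27 ± 0.18, adjusted p = 7.43e-04), and 0 were lower. Tfam, which packages mitochondrial DNA, was level in the 2 cell types, at 23.4, 22.4 and 24.4 CPM in mKate2+ cells and 24.01, 22.4 and 26.2 CPM in astrocytes (-0.05 ± 0.13, adjusted p = 0.741).

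Regulators of mitochondrial biogenesis changed in opposite directions within 1 gene family. Ppargc1a, the coactivator PGC-1alpha, was at 0.418, 0 and 0.297 CPM in mKate2+ cells and 21.4, 18.1 and 23.0 CPM in astrocytes, a log2 fold change of -6.44 ± 0.71, adjusted p = 2.26e-04, with -7.14 without mKate2+ replicate 1 and -5.85 without mKate2+ replicate 2. The 3 astrocyte and the 3 mKate2+ libraries were far apart. Its relative Ppargc1b was at 8.34, 8.25 and 11.2 CPM in mKate2+ cells and 0.576, 1.74 and 1.87 CPM in astrocytes (2.70 ± 0.44, adjusted p = 0.00140). Pprc1, the other member of the family, changed by 1.495 ± 0.24, adjusted p = 0.00142. The nuclear receptor gene Esrrg, a partner of PGC-1alpha, was at 0.251, 0.0554 and 0.0297 CPM in mKate2+ cells and 11.7, 12.1 and 6.84 CPM in astrocytes (-6.45 ± 0.65, adjusted p = 1.51e-04, and -7.78 without mKate2+ replicate 1), and Prkaa2, a catalytic subunit of the energy sensor AMPK, was lower (-2.58 ± 0.40, adjusted p = 0.00109) while the other subunit gene Prkaa1 was not called (0.70). In total 3 of 23 such genes were higher and 4 lower.

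Of 27 genes for mitochondrial fusion, fission and cristae 6 were higher and 2 lower. Oma1, the stress protease that cuts the fusion factor OPA1, was at 46.0, 44.3 and 40.5 CPM in mKate2+ cells and 17.3, 17.1 and 15.1 CPM in astrocytes (1.40 ± 0.13, adjusted p = 1.24e-04), Mtfr1, a fission regulator, rose by 1.25 on the log2 scale, and the cristae protein gene Chchd10 was at 0.920, 0.942 and 0.326 CPM in mKate2+ cells and 16.9, 7.66 and 12.6 CPM in astrocytes (-4.08 ± 0.49, adjusted p = 3.18e-04). Of 38 mitophagy and autophagy genes, which all passed the filter among SB28 libraries, 0 were higher and 5 lower (13.2%, against 13.5% of all such genes). The lower genes were led by the receptor gene Calcoco1 at 39.2, 39.1 and 33.4 CPM in mKate2+ cells and 137, 117 and 119 CPM in astrocytes (-1.74 ± 0.13, adjusted p = 3.72e-05) and by Pink1, the kinase that marks damaged mitochondria, at 23.4, 32.8 and 19.5 CPM in mKate2+ cells and 129, 101.8 and 142 CPM in astrocytes (-2.30 ± 0.22, adjusted p = 1.27e-04). Among 40 mitochondrial carrier genes 4 were higher and 3 lower. The aspartate/glutamate carrier gene Slc25a13 changed by 2.41 ± 0.14, adjusted p = 1.51e-05. The glutamate carrier gene Slc25a18 was at 0.307, 0.526 and 0.267 CPM in mKate2+ cells and 55.2, 28.5 and 34.6 CPM in astrocytes (-6.73 ± 0.38, adjusted p = 1.46e-05).

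Genes for moving mitochondria between and within cells had 3 higher and 7 lower of 28. Gap43, a growth cone protein of cell protrusions, was low in both cell types, at 0.669, 0.831 and 1.13 CPM in mKate2+ cells and 6.71, 4.97 and 12.8 CPM in astrocytes, and lower in mKate2+ cells (-3.22 ± 0.44, adjusted p = 6.12e-04). Rhot1, which couples mitochondria to motors, was at 90.3, 86.7 and 88.1 CPM in mKate2+ cells and 62.4, 67.1 and 59.1 CPM in astrocytes, a change of 0.49 ± 0.11, adjusted p = 0.00597 under the size limit. Gja1, connexin 43, was at 266, 305 and 288 CPM in mKate2+ cells and 169, 205 and 208 CPM in astrocytes (0.55 ± 0.13, adjusted p = 0.00807), also under it. The higher members were the connexin gene Gjc1, at 56.3, 52.4 and 54.7 CPM in mKate2+ cells and 7.12, 9.02 and 11.8 CPM in astrocytes (2.54 ± 0.21, adjusted p = 6.03e-05), Tnfaip2, a factor for tunneling nanotubes, at 182, 179 and 161 CPM in mKate2+ cells and 38.8, 45.9 and 49.6 CPM in astrocytes (1.95 ± 0.14, adjusted p = 3.31e-05), and the GTPase gene Ralb (1.24 ± 0.15, adjusted p = 3.52e-04). The lower ones included the kinesin gene Kif5c (-2.002 ± 0.21, adjusted p = 1.77e-04), the exocyst gene Exoc4 (-1.70 ± 0.16, adjusted p = 1.14e-04) and Myo10, a filopodial myosin (-1.12 ± 0.12, adjusted p = 1.93e-04).

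In degradative organelles the lower calls fell mainly on lysosomal enzymes and membrane proteins. Of 47 genes for lysosomal hydrolases and membrane proteins 19 were lower (40.4%, against 22.8% of all genes) and 0 higher (1 without mKate2+ replicate 3 or astrocyte replicate 1 or 2), and all 47 passed the filter among SB28 libraries, where the share of all genes was 13.5%. The group had a median of -0.83 that was -0.86 without replicate 2 and -0.90 in mKate2- cells. The cathepsin gene Ctsh was at 3.12, 2.35 and 1.63 CPM in mKate2+ cells and 198, 152 and 112 CPM in astrocytes (-6.02 ± 0.33, adjusted p = 1.20e-05). Ctsf, another cathepsin gene, changed by -5.73 ± 0.23, adjusted p = 5.62e-06. Scarb2, a membrane protein that brings glucocerebrosidase to lysosomes, changed by -2.22 ± 0.16, adjusted p = 3.41e-05. The abundant cathepsin gene Ctsb was not called (-0.38 ± 0.14, adjusted p = 0.0431). The lysosomal proton pump was close to level, with 1 lower gene of 18 (5.56%), the tissue-restricted subunit gene Atp6v0e2, at 3.63, 3.32 and 1.54 CPM in mKate2+ cells and 157, 131 and 135 CPM in astrocytes (-5.64 ± 0.32, adjusted p = 1.46e-05). Of 34 peroxisome genes 8 were lower (23.5%, against 22.8% of all genes, and 6 of the 32 that passed the filter among SB28 libraries, 18.8% against 13.5%) and 0 higher. The very long chain fatty acid transporter gene Abcd2 changed by -3.09 ± 0.26, adjusted p = 7.19e-05.

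Of 31 endoplasmic reticulum genes 10 were higher (32.3%) and 2 lower. Sdf2l1, a chaperone partner, was at 73.1, 91.3 and 69.5 CPM in mKate2+ cells and 24.4, 25.7 and 22.4 CPM in astrocytes (1.68 ± 0.15, adjusted p = 8.05e-05). Edem1, which sends misfolded glycoproteins for degradation, changed by 1.38 ± 0.10, adjusted p = 4.42e-05. Pdia6, a disulfide isomerase, changed by 1.26 ± 0.12, adjusted p = 1.05e-04. The stress genes Ddit3 and Dnajb9 were lower (-1.29 ± 0.20, adjusted p = 0.00109 and -1.33 ± 0.16, adjusted p = 3.01e-04). All 79 cytosolic ribosomal protein genes had positive log2 fold changes, of which 12 were called higher with a median of 0.84. Without replicate 2 the median was 0.30 and 0 were called at the same thresholds. The calls numbered 36 and 24 without mKate2+ replicates 1 and 3 and 4 and 3 without astrocyte replicates 2 and 3. The proteasome had 5 higher (12.2%, against 12.2% of all genes) and 2 lower genes of 41, with 3 to 10 higher when 1 library was left out, the fewest without astrocyte replicate 3, and the lower pair, Psmb8 and Psmb9, encodes immunoproteasome subunits. Psmb8 had 3 counts in all over the mKate2+ libraries and was at 2.92, 2.48 and 6.76 CPM in astrocytes. Of 46 primary cilium genes 9 were lower, among them the ciliary kinesin gene Kif17 (-4.74 ± 0.44, adjusted p = 1.10e-04) and the adenylyl cyclase gene Adcy3 (-3.15 ± 0.32, adjusted p = 1.64e-04), and 1, Bbs12, was higher (1.38 ± 0.21, adjusted p = 9.89e-04), or 2 without mKate2+ replicate 2.

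**Figure D3:**
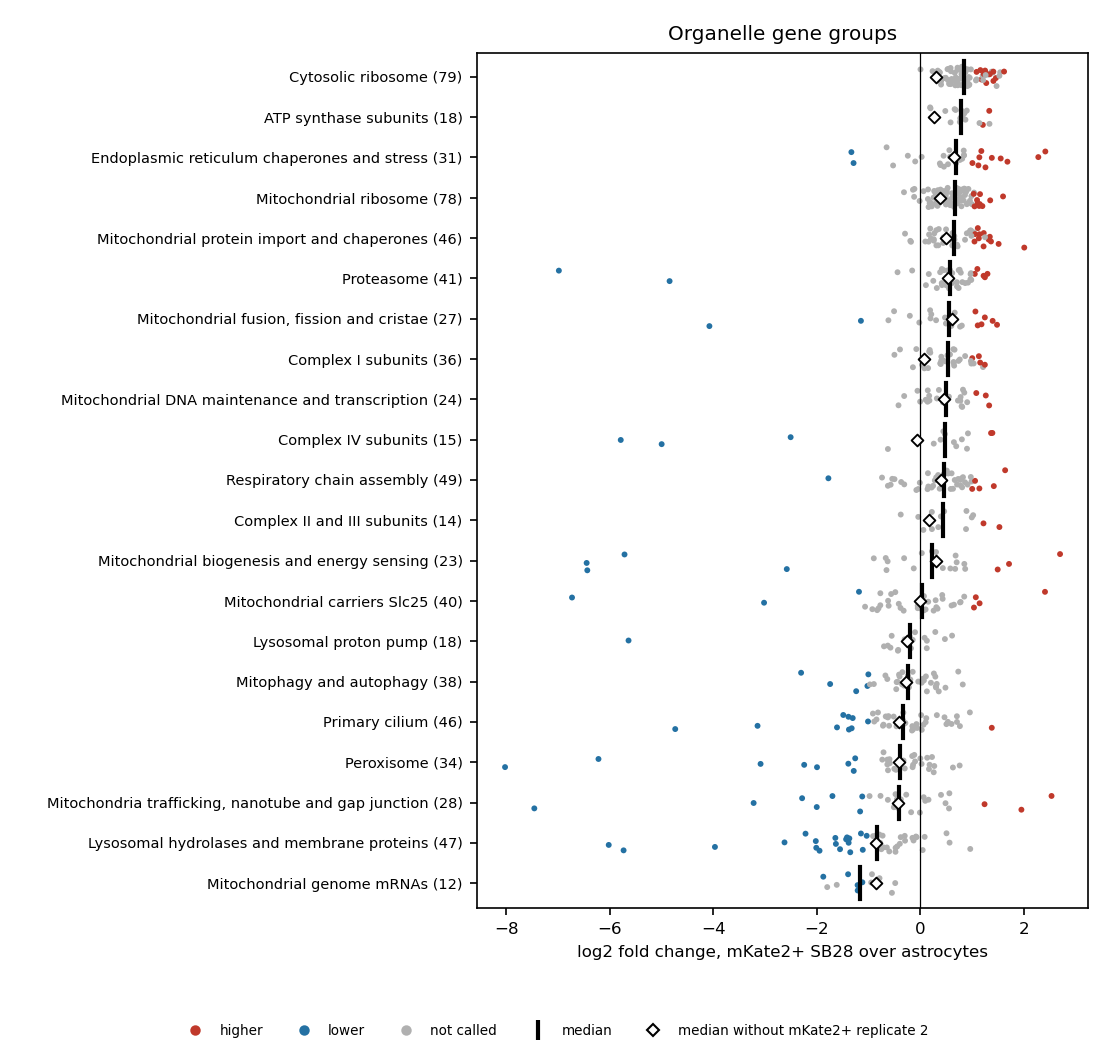
Log2 fold change of every tested gene (points) in the 21 organelle groups, mKate2+ SB28 over astrocytes, with the number tested in brackets. For the respiratory complexes and the cytosolic ribosome the diamonds (medians without mKate2+ replicate 2) lie between -0.07 and 0.30 and the bars (medians with it) between 0.43 and 0.84, whereas for the lysosomal and peroxisomal groups the diamonds lie close to the bars.

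Signaling genes were described in 14 groups with 422 different tested genes, of which 40 were higher (9.48%) and 149 lower (35.3%, against 22.8% of all genes). This was the reverse of the metabolic groups, where higher genes outnumbered lower ones. Of the 422 genes 363 passed the same filter among the 6 SB28 libraries. Among the 363, 92 were lower (25.3%), against the 13.5% of all genes that passed there. By group the lower genes were then 9 of 37 growth factor and receptor, 11 of 33 Wnt, 8 of 20 Notch, 7 of 13 Hedgehog and 14 of 42 TGF-beta and BMP genes. On the same basis they were 5 of 13 IGF and insulin, 6 of 25 Hippo-YAP, 8 of 30 JAK-STAT, 7 of 35 RAS-MAPK (20.0%), 5 of 25 hypoxia (20.0%), 4 of 35 PI3K-AKT-mTOR (11.4%) and 1 of 22 chemokine genes (4.55%). In these signaling groups, counts of up to 2 higher genes moved by at most 2 when 1 library was left out, except that of the hypoxia group. Every called gene whose levels are given in the metabolic, organelle and signaling groups had no overlap between the 3 mKate2+ and the 3 astrocyte libraries. The same held for 1630 of all 1634 higher and 3008 of all 3041 lower genes, so it does not set the named genes apart.

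Growth factors and receptor tyrosine kinases had 11 higher and 17 lower genes of 45. Pdgfb, the platelet-derived growth factor B chain, was at 258, 387 and 258 CPM in mKate2+ cells and 70.7, 70.1 and 59.8 CPM in astrocytes (2.16 ± 0.19, adjusted p = 8.38e-05), with replicate 2 high (1.95 without it). Fgf7, a fibroblast growth factor, changed by 2.31 ± 0.21, adjusted p = 8.94e-05. The fibroblast growth factor receptor gene Fgfr2 changed by -6.18 ± 0.26, adjusted p = 6.27e-06. Ntrk2, the receptor for the neurotrophin BDNF, was at 0.112, 0.222 and 0.178 CPM in mKate2+ cells and 26.8, 50.1 and 20.7 CPM in astrocytes (-7.55 ± 0.49, adjusted p = 2.27e-05). The EGF receptor ligand gene Tgfa changed by -6.60 ± 0.38, adjusted p = 1.52e-05.

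Downstream of these receptors, 7 of 35 genes of the RAS-MAPK cascade were lower (20.0%) and 1 was higher, and all 35 passed the filter among SB28 libraries. The feedback inhibitor gene Spry2 was at 39.8, 47.6 and 41.5 CPM in mKate2+ cells and 203, 199 and 220.5 CPM in astrocytes (-2.28 ± 0.12, adjusted p = 1.18e-05). Ccnd1, cyclin D1, was at 1293, 1414 and 1313 CPM in mKate2+ cells and 3201, 3684 and 3388 CPM in astrocytes (-1.36 ± 0.13, adjusted p = 1.43e-04). The higher gene was the phosphatase gene Dusp5 (1.11 ± 0.21, adjusted p = 0.00299), which was not called without astrocyte replicate 3 (0.89). The PI3K-AKT-mTOR group had 7 higher and 6 lower of 37, and 4 higher without mKate2+ replicate 3. The leukocyte-type catalytic subunit gene Pik3cd was at 17.0, 13.9 and 15.1 CPM in mKate2+ cells and 1.85, 4.05 and 4.26 CPM in astrocytes (2.16 ± 0.33, adjusted p = 9.95e-04). The regulatory subunit gene Pik3r3 changed by -2.84 ± 0.24, adjusted p = 7.10e-05. The mTOR inhibitor gene Ddit4l was at 0.948, 0.415 and 0.712 CPM in mKate2+ cells and 84.0, 101.9 and 63.8 CPM in astrocytes (-6.91 ± 0.34, adjusted p = 9.30e-06).

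Of 16 IGF and insulin genes 4 were higher and 8 lower, but 3 of the lower genes entered through astrocytes, and of the 13 that passed the filter among SB28 libraries 5 were lower (38.5%, against 13.5%). The 3 RNA-binding protein genes Igf2bp1, Igf2bp2 and Igf2bp3, which bind Igf2 mRNA, were higher, by log2 fold changes of 2.73, 1.99 and 2.67. Of the secreted binding proteins Igfbp4 was also higher (1.58 ± 0.47, adjusted p = 0.0203), a call lost without mKate2+ replicate 2 (1.35) or astrocyte replicate 2 (1.41), and its change was 2.31 without astrocyte replicate 3. Igfbp6 was not called, and Igfbp2, Igfbp3, Igfbp5 and Igfbp7 were lower. Igfbp5 was at 8.14, 2.47 and 14.3 CPM in mKate2+ cells and 281, 291 and 4376 CPM in astrocytes (-7.64 ± 1.46, adjusted p = 0.00297), and without astrocyte replicate 3, which stood far above the others, its change was -5.11, against -8.29 without mKate2+ replicate 3. Igfbp7 was at 1.92, 0.554 and 1.81 CPM in mKate2+ cells and 14.7, 16.3 and 61.5 CPM in astrocytes (-4.44 ± 0.73, adjusted p = 0.00150), and -3.44 without astrocyte replicate 3. Igfbp2 was at 7.17, 5.35 and 12.9 CPM in mKate2+ cells and 865, 432 and 2478 CPM in astrocytes (-7.22 ± 0.80, adjusted p = 2.29e-04), and -6.26 without astrocyte replicate 3. Igfbp3 was at 834, 893 and 753 CPM in mKate2+ cells and 8727, 7832 and 5126 CPM in astrocytes (-3.13 ± 0.23, adjusted p = 3.89e-05). The astrocyte libraries themselves differed more widely in Igfbp2 than in Igfbp3. The receptor gene Igf1r was not called (-0.56 ± 0.13, adjusted p = 0.00608).

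Of 39 Wnt genes 17 were lower (43.6%) and 2 higher, with a median of -0.95. The ligand gene Wnt7b was at 398, 467 and 421 CPM in mKate2+ cells and 47.7, 67.7 and 48.2 CPM in astrocytes (2.97 ± 0.18, adjusted p = 1.80e-05). Axin2, a feedback target of the pathway, changed by -6.58 ± 0.33, adjusted p = 9.54e-06. Notum, an enzyme that inactivates Wnt ligands, changed by -3.17 ± 0.19, adjusted p = 1.86e-05. Ctnnb1, beta-catenin, changed by -0.71 ± 0.13, adjusted p = 0.00247, under the size limit. Of 22 Notch genes 10 were lower (45.5%) and 1 higher. The receptor gene Notch3 was at 1.90, 1.66 and 1.63 CPM in mKate2+ cells and 75.8, 91.5 and 160.3 CPM in astrocytes (-5.98 ± 0.34, adjusted p = 1.46e-05) and the ligand gene Jag1 at 35.9, 31.3 and 35.4 CPM in mKate2+ cells and 199, 244 and 293 CPM in astrocytes (-2.85 ± 0.18, adjusted p = 1.91e-05), while Rbpj, the DNA-binding partner of Notch, was not called (-0.19 ± 0.18, adjusted p = 0.370).

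Hedgehog had the largest share of lower genes among the developmental pathways, 10 of 16 (62.5%), with 0 higher and a median of -1.18. The ligand gene Shh was at 0.474, 0.166 and 0.237 CPM in mKate2+ cells and 70.6, 106 and 43.8 CPM in astrocytes (-7.96 ± 0.51, adjusted p = 2.17e-05). The transcription factor gene Gli3 was lower (-1.92 ± 0.20, adjusted p = 1.93e-04), and Smo, which passes the signal, was not called (0.47 ± 0.13, adjusted p = 0.0140). Of 48 genes of the TGF-beta and BMP pathways 20 were lower (41.7%) and 1 higher. Tgfb2 was at 1.31, 1.36 and 1.66 CPM in mKate2+ cells and 39.9, 29.6 and 67.0 CPM in astrocytes (-4.98 ± 0.35, adjusted p = 3.41e-05), the BMP target gene Id3 at 67.6, 82.2 and 84.4 CPM in mKate2+ cells and 514, 321 and 392.1 CPM in astrocytes (-2.39 ± 0.20, adjusted p = 6.26e-05), and the activin subunit gene Inhba, the higher member, at 25.3, 32.8 and 27.2 CPM in mKate2+ cells and 5.19, 11.5 and 11.5 CPM in astrocytes (1.58 ± 0.31, adjusted p = 0.00334).

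In the Hippo-YAP group 2 genes were higher and 7 lower of 26. The transcription factor gene Tead4 was at 82.0, 63.4 and 75.9 CPM in mKate2+ cells and 13.1, 16.3 and 11.98 CPM in astrocytes (2.41 ± 0.18, adjusted p = 3.97e-05) and the YAP target gene Ankrd1 was also higher (2.26 ± 0.23, adjusted p = 1.76e-04). Another target, Ccn1, changed by -1.55 ± 0.13, adjusted p = 7.05e-05. The JAK-STAT and interleukin 6 family had 3 higher and 9 lower of 31, with Stat6 higher (1.08 ± 0.11, adjusted p = 1.61e-04) and the receptor gene Il6ra lower (-1.82 ± 0.22, adjusted p = 3.68e-04).

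Of 30 interferon and DNA sensing genes 11 were lower and 0 higher, but 7 of the lower genes entered through astrocytes, and of the 21 genes that passed the filter among SB28 libraries 4 were lower. Ifit3, an interferon-induced antiviral gene, was at 0.446, 0.637 and 0.623 CPM in mKate2+ cells and 7.58, 5.85 and 10.5 CPM in astrocytes (-3.81 ± 0.35, adjusted p = 9.86e-05), and B2m, the light chain of class I MHC, was not called (-0.30 ± 0.22, adjusted p = 0.274). In the chemokine and NF-kB group the 4 higher genes included the factor genes Nfkb1 (1.27 ± 0.12, adjusted p = 1.22e-04) and Nfkb2 (1.17 ± 0.12, adjusted p = 1.62e-04), and the 5 lower genes included the chemokine gene Cxcl14, at 0.112, 0.194 and 0.119 CPM in mKate2+ cells and 24.9, 23.1 and 30.3 CPM in astrocytes (-7.49 ± 0.29, adjusted p = 5.25e-06), and the adhesion gene Icam1, at 0.139, 0.0831 and 0.148 CPM in mKate2+ cells and 7.95, 7.04 and 13.5 CPM in astrocytes (-6.23 ± 0.44, adjusted p = 3.42e-05).

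The 2 oxygen-regulated factor genes parted. Hif1a was at 328, 290.0 and 325 CPM in mKate2+ cells and 119.7, 158 and 188 CPM in astrocytes (1.01 ± 0.18, adjusted p = 0.00217), at the size limit and no longer called without mKate2+ replicate 1 (0.98) or 3 (0.99) or astrocyte replicate 1 (0.86). Epas1, which encodes HIF-2alpha, was at 1.06, 0.665 and 1.07 CPM in mKate2+ cells and 37.0, 59.7 and 67.5 CPM in astrocytes (-5.88 ± 0.33, adjusted p = 1.41e-05). Of 25 hypoxia targets 2 were higher (6 without astrocyte replicate 2) and 5 lower, with Egln3, an oxygen-sensing hydroxylase, at 239, 310.4 and 241 CPM in mKate2+ cells and 58.0, 101 and 59.5 CPM in astrocytes (1.85 ± 0.25, adjusted p = 5.25e-04) and Adm, the vasodilator adrenomedullin, at 0.976, 1.77 and 1.48 CPM in mKate2+ cells and 60.0, 101 and 42.1 CPM in astrocytes (-5.59 ± 0.41, adjusted p = 4.01e-05). The median of this group was 0.28 and changed sign to -0.22 without replicate 2.

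Neurotransmitter and peptide receptors of astrocyte type are a list written for genes known from astrocytes. Of 28 tested 18 were lower (64.3%) and 2 higher, with a median of -3.97, but 14 of the 28 passed the filter among SB28 libraries and the rest entered through astrocytes, so the count supports nothing about the list. Over the 15 with at least 10 counts in every library the median was -0.26. The sphingosine phosphate receptor gene S1pr3 was at 0.474, 0.194 and 0.326 CPM in mKate2+ cells and 54.6, 65.3 and 67.8 CPM in astrocytes (-7.55 ± 0.30, adjusted p = 5.62e-06). S1pr1, a second receptor of that lipid, changed by -2.64 ± 0.15, adjusted p = 1.41e-05. The higher members were the protease-activated receptor gene F2rl1, at 78.5, 80.8 and 73.8 CPM in mKate2+ cells and 7.45, 15.1 and 19.5 CPM in astrocytes (2.46 ± 0.32, adjusted p = 5.06e-04), and the adrenergic receptor gene Adra1b, at 18.4, 23.7 and 18.1 CPM in mKate2+ cells and 1.98, 4.38 and 9.51 CPM in astrocytes (1.91 ± 0.50, adjusted p = 0.0124, and 2.64 without astrocyte replicate 3).

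**Figure D4:**
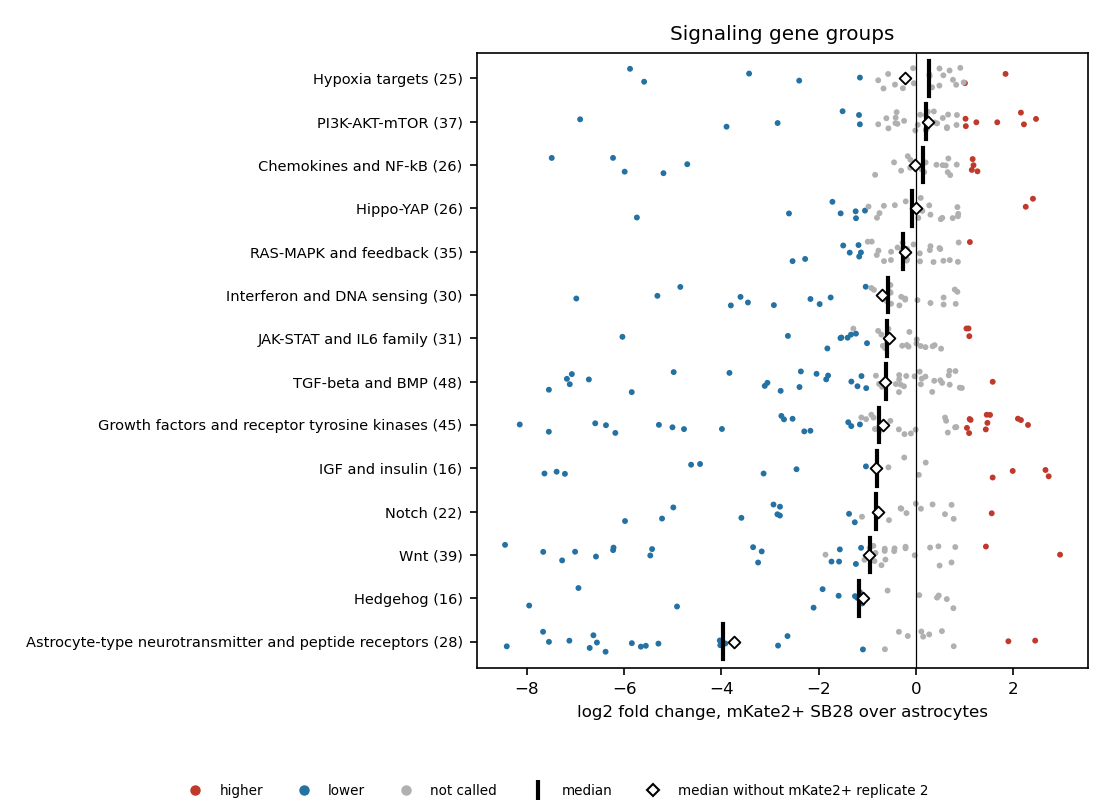
Log2 fold change of every tested gene (points) in the 14 signaling groups, mKate2+ SB28 over astrocytes, with the number tested in brackets, group medians as bars and medians without mKate2+ replicate 2 as diamonds. In each group the lower genes (blue) extend farther from 0 than the higher genes (red). The receptor group has a median of -3.97, or -0.26 over its genes with at least 10 counts in every library.

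How far each mKate2+ library stayed from the astrocytes was also given as a distance, the mean absolute log2 difference from the astrocyte mean over the genes of a group. Over all genes it was 1.20, 1.28 and 1.22 in mKate2+ replicates 1, 2 and 3, 1.22, 1.18 and 1.18 in the mKate2- replicates, and 0.419, 0.290 and 0.420 for each astrocyte library against the other 2. Over the 83 respiratory chain subunits the mKate2+ replicates were at 0.466, 1.33 and 0.509. Replicates 1 and 3 thus lay near the astrocyte libraries, at 0.367, 0.146 and 0.414, and near the mKate2- cells at 0.504 ± 0.042 (SD, n = 3), while replicate 2 lay farther off. The cytosolic ribosome had the same form, with 0.358, 1.54 and 0.442. DNA maintenance genes (0.556 ± 0.012, against 0.198 ± 0.040 among astrocytes, SD, n = 3) and mitophagy genes (0.530 ± 0.033, against 0.231 ± 0.037) had the smallest mean distances of the 46 metabolic, organelle and signaling groups. In replicates 1 and 3 alone they did not, since Complex I (0.330 and 0.341), Complexes II and III (0.296 and 0.407), ATP synthase (0.353 and 0.414) and the cytosolic and mitochondrial ribosomes were nearer. In DNA replication genes the distance was 1.45 ± 0.093, against 0.224 ± 0.020.

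The direct comparison of mKate2+ with mKate2- cells gave medians near 0 for the respiratory chain, cytosolic ribosome, DNA replication and lysosomal groups once replicate 2 was left out, but not for the mitochondrial genome. Over the respiratory chain subunits the median log2 fold change of mKate2+ over mKate2- was 0.53 with all libraries and 0.04 without replicate 2. Over the cytosolic ribosome it was 0.58 and 0.04, over mitochondrial genome mRNAs 0.21 and 0.42, over DNA replication genes 0.02 and 0.04, and over the lysosomal group 0.06 and -0.0035. Without replicate 2 it lay farther from 0 in some other groups, at -0.18 for hypoxia targets, -0.12 for sterol synthesis and -0.09 for the primary cilium. In each of these groups 0 genes passed an adjusted p of 0.05, where 0.0% of all genes did. A p that misses the threshold does not show that the 2 tumor populations were alike.

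Relative use of paired isozyme genes was compared as the share of the first gene in the counts per kilobase of both. Of 25 pairs, 22 did not overlap between the 3 mKate2+ and the 3 astrocyte libraries, each at p = 0.1 in an exact two-sided permutation test, the smallest possible, and 0.114 after Benjamini-Hochberg adjustment over the 25. Of single genes, 68.4% of those tested did not overlap between the 2 cell types. The pairs include some near the floor, such as Ndufa4 and Ndufa4l2, with 4 and 22 counts in all of the second gene in mKate2+ cells and astrocytes. Pdk1 held 93.2%, 93.8% and 93.5% of the Pdk1 and Pdk2 pair in mKate2+ replicates and 39.5%, 57.0% and 44.3% in astrocytes. Cpt1a held 81.8%, 82.7% and 83.6% against 40.2%, 46.2% and 40.8% of its pair with Cpt1c. Slc16a1 held 99.5%, 99.1% and 99.4% of its pair with Slc16a3 in mKate2+ cells and 69.4%, 69.9% and 70.4% in astrocytes. Ldha held 98.9%, 99.1% and 98.9% against 80.6%, 85.0% and 77.3% of its pair with Ldhb. The adenine nucleotide carriers went from a majority of Slc25a4 in astrocytes (61.4%, 60.4% and 63.1%) to a majority of Slc25a5 in mKate2+ cells, where Slc25a4 held 44.3%, 43.0% and 45.2%. The glucose transporter gene Slc2a1 held 97.9%, 98.4% and 97.9% in mKate2+ cells and 70.3%, 69.5% and 70.7% in astrocytes of its pair with Slc2a3. Pairs of Pfkl with Pfkp, Shmt1 with Shmt2 and Cox6a1 with Cox6a2 overlapped.

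**Figure D5:**
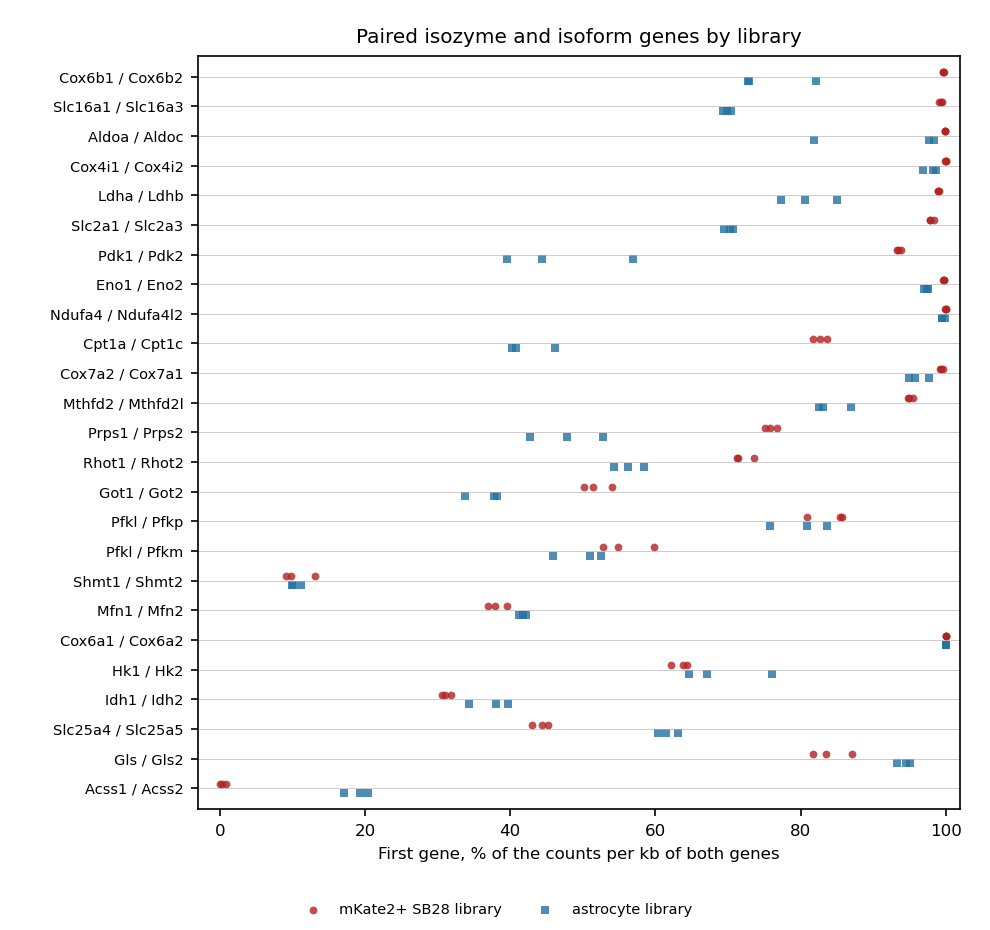
Share of the first gene, in percent of the counts per kilobase of both genes, for 25 pairs of isozyme or isoform genes in the 3 mKate2+ SB28 libraries (circles) and the 3 astrocyte libraries (squares). Pdk1 / Pdk2, Cpt1a / Cpt1c and Slc16a1 / Slc16a3 have the largest differences between group means in percentage points, and 22 of the 25 pairs do not overlap.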

How the data were processed

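RNA was taken from sorted cells with the RNeasy Plus Micro kit and sequenced as paired reads. Per the labels and the submitters' processing notes, the authors trimmed reads with Trimmomatic (version 0.36), aligned them to GRCm38 with STAR (version 2.5.2b) and counted them per gene with featureCounts from Subread (version 1.5.2). The deposited values are whole-number read counts per gene, with no normalization. Whether counting used strand is not given in the sources used here. Of 13342 genes tested, 4305 overlap exons of a gene on the opposite strand, as do 58 of the 182 genes given with a fold change, and their counts may hold reads of that neighbour. Counts of mKate2 and green fluorescent protein transcripts were not analysed here.

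Counts of the 6 libraries were tested with edgeR (version 4.0.16, R version 4.3.3) by its quasi-likelihood test with TMM scaling and Benjamini-Hochberg adjustment over all 13342 genes with more than 1 CPM in at least 2 libraries, and a gene was called at an adjusted p below 0.05 and a log2 fold change beyond 1. CPM for this filter are counts scaled to the library total. Levels printed in CPM are scaled to the library total over tested genes times its TMM factor, computed over all 9 libraries. Distances used log2 CPM after TMM scaling with a prior count of 2. Isozyme shares used counts per kilobase of exon, with names and lengths from GENCODE M21. Replicates are separate cultures by the series' description. With 3 libraries a group, exact permutation tests (SciPy version 1.17.1) cannot go below 0.1.

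The libraries compared, the gene groups and the genes named were chosen with earlier results of these data known. Genes were named by a rule: in each direction the 10 called genes of smallest p that moved 1 way in all 9 pairings, up to 3 called genes a direction and 2 abundant uncalled genes per group, markers, and a few genes of mitochondrial transfer. A few genes the rule picks are not reported here. Cdk1, Hmgcs1, Idi1, Lss, Mki67, Slc38a3, Igfbp4, Igfbp5, Lhx1 and the genes of the isozyme pairs printed were singled out after their values were seen. On simulated counts for this comparison (12992 genes tested), 87 of 100 genes changed 3-fold and 98 of 100 changed 6-fold were called, with 13 false calls. The changed genes were drawn only from genes well above the CPM filter, and all other genes were left unchanged. In the data 35.0% of genes were called, many near the floor, so these rates do not carry over to them. Alternatives were DESeq2 (version 1.42.0), upper-quartile scaling, other filters, a fit of all 9 libraries, a replicate block, removal of the trend with gene length and leaving out each library.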

Additional observations from a re-analysis of the deposited data

How the results depend on the processing

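Counts of higher and lower genes stayed within 1.5 times of 1634 and 3041 under every alternative run. They were 1631 and 3054 with DESeq2, 1371 and 3222 with upper-quartile scaling, 1917 and 4130 of 27135 genes with no filter on low counts, 1342 and 2071 of 12216 genes with at least 10 counts in every library, 1692 and 3077 in a fit of all 9 libraries and 1759 and 2961 with the trend in gene length removed. The share of calls that were higher was 35.0% with TMM scaling and the CPM filter, 29.8% with upper-quartile scaling and 39.3% with at least 10 counts. Leaving out each library in turn gave 1578 to 1666 higher and 2871 to 3050 lower genes. Replicate numbers are shared between the groups, but deviations of same-numbered libraries from their group means correlated at -0.15, 0.07 and 0.25, and those of mKate2+ and mKate2- libraries at -0.0014, 0.14 and 0.17. All populations came from 3 co-cultures, but the sources used here do not say that a number marks 1 co-culture, and not every pair correlated above 0.1, so the pairing was not established. With the replicate number as a block the counts against astrocytes were 1632 and 2966, and mKate2+ against mKate2- cells gave 0 calls, as without it. Without mKate2+ replicate 2 that comparison gave 0 calls with and without the block. These fits of the 2 tumor populations were added after seeing the data.

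With upper-quartile scaling, which moved the median of all genes from -0.02 to -0.12, the median log2 fold change was 0.40 for mitochondrial DNA maintenance, 0.46 for fusion and fission, -0.50 for mitochondria trafficking, -0.33 for mitophagy, -0.29 for the lysosomal proton pump, -0.50 for the peroxisome, 0.59 for the endoplasmic reticulum and -0.36 for RAS-MAPK and feedback. With at least 10 counts required in every library, which leaves fewer genes, it was -0.64 for glucose and lactate transport, 0.69 for glutamate and glutamine, 0.41 for mitochondrial DNA maintenance, 0.47 for fusion and fission, -0.31 for mitophagy, -0.28 for the lysosomal proton pump, 0.61 for the endoplasmic reticulum, -0.34 for RAS-MAPK and feedback, -0.32 for IGF and insulin, -0.52 for Notch and -0.26 for astrocyte-type receptors. With no filter on low counts it was 0.61 for fusion and fission, -0.31 for mitochondria trafficking, -0.11 for the lysosomal proton pump, -0.27 for the peroxisome, 0.75 for the endoplasmic reticulum, -0.97 for IGF and insulin, -1.34 for Wnt and -2.02 for Notch. With the trend in gene length removed it was 0.57 for mitochondrial DNA maintenance, -0.12 for the lysosomal proton pump, 0.74 for the endoplasmic reticulum and -0.16 for RAS-MAPK and feedback. The distance from astrocytes was 0.491 for mitochondrial DNA maintenance with upper-quartile scaling and 1.35 for DNA replication with upper-quartile scaling. Leaving out each library in turn gave median log2 fold changes of 0.47 to 0.72 for glutamate and glutamine, 0.97 to 1.28 for serine and folate, 1.07 to 1.25 for nucleotide synthesis, 0.10 to 0.31 for mitochondrial biogenesis, 0.53 to 0.62 for fusion and fission, -0.43 to -0.36 for mitochondria trafficking, -0.42 to -0.33 for the peroxisome, 0.61 to 0.76 for the endoplasmic reticulum, -0.32 to -0.16 for RAS-MAPK and feedback, -0.70 to -0.41 for TGF-beta and BMP and -4.13 to -2.79 for astrocyte-type receptors. The causes of these shifts were not tested.

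Tfam and Mki67, neither of them called, changed sign: Tfam was at 0.0055 with no filter and ranged from -0.10 to 0.0102 when 1 library was left out, and Mki67 ranged from -0.0087 to 0.84. Among the genes given with a fold change, 2314 of 2342 other comparisons with an alternative kept their direction and their side of the threshold, 22 lost the call and 6 gained it. The isozyme ratios printed moved by less than the spread between replicates under every alternative, as did the share of counts from mitochondrial mRNAs, whose difference ranged from -1.87 to -1.16 percentage points when 1 library was left out. Depth limits the genes at a few counts in mKate2+ cells, whose fold changes depend on the prior count.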

Other observations

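Astrocyte replicate 3 differed from the other astrocyte libraries in further genes. The Y-linked genes Ddx3y, Eif2s3y, Kdm5d and Uty were at 109.6, 42.6, 31.7 and 42.8 CPM in it and at no more than 0.564 CPM in each of the other 8 libraries of the series. Xist, transcribed from the inactive X chromosome, was at 10.5 CPM in it against 123 and 193 CPM in astrocyte replicates 1 and 2. Aldoc, an aldolase known from astrocytes, was at 349 CPM in it against 56.0 and 32.7 CPM in replicates 1 and 2. Trp53, the gene of the tumor suppressor p53, was at 82.5, 65.7 and 69.4 CPM in the astrocyte replicates and at 13.6, 6.95 and 14.1 CPM in the mKate2+ replicates. The growth regulator genes Lin28b and Twist2 were, in astrocyte replicates 1, 2 and 3, at 13.7%, 16.6% and 20.6% and at 15.2%, 16.3% and 13.3% of their mKate2+ means. These genes were chosen after their values were seen, and no explanation was tested.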
